A study of Mus musculus with 4 samples.

Results

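The genes described here are 8 that carry calcium across the plasma membrane of heart cells. They are *Cacna1c*, *Cacnb2*, *Cacna2d1*, *Cacna1g*, *Cacna1h*, *Slc8a1*, *Atp2b1* and *Atp2b4*. They were taken by symbol from the 55401 genes of the deposited table, each symbol stood on 1 row, and all 8 were among the 10036 genes that reached a mean TPM (a transcript level as a share of the library, corrected for length) of at least 1. Heart RNA of 8-week-old mice had been sequenced in 2 wild type and 2 *Ctcf* heterozygous (Ctcf +/R567W) libraries. The heterozygous mice carried the CTCF-R567W point mutation, made by CRISPR/Cas9 editing, on a single *Ctcf* allele, so the mutation was present in every cell type of the heart. The paper describes the housing of its mice with no difference by genotype. It describes capture of mRNA on beads for embryonic hearts and gives no separate protocol for the hearts of 8-week-old mice. The question of the comparison was how gene expression in the adult heart differs when a *Ctcf* allele is mutated. No source used here ties a library to a litter or gives the sex of a mouse, so the p-values measure the spread between these 4 libraries only.

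A contraction starts when the action potential opens voltage-gated calcium channels in the sarcolemma, and the calcium that enters triggers the release of far more calcium from the sarcoplasmic reticulum. The L-type channel is the main route of entry. It has a pore (encoded by *Cacna1c*), a cytoplasmic β subunit that promotes the transport of the pore to the membrane and shapes its gating (mainly *Cacnb2* in heart), and an extracellular α2δ subunit (*Cacna2d1*). T-type channels open at more negative voltages, and their pores *Cacna1g* and *Cacna1h* are best known from pacemaker cells and from the fetal heart. Between beats, calcium leaves the cell mainly through the sodium-calcium exchanger *Slc8a1* and in smaller part through the plasma membrane calcium pumps *Atp2b1* and *Atp2b4*.

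TPM are shares of a fixed total, so libraries were brought to a common scale by a median-of-ratios factor, and the resulting scaled TPM are used throughout unless stated. Values are given for replicates 1 and 2 in that order. The factors were between 0.821 and 1.27 and lower in both heterozygous libraries. Genes of the mitochondrial genome took between 61.1% and 68.6% of the TPM of a library. The read depth is unknown, because TPM keep no depth. *Ctcf* itself was at 6.15 and 5.99 in wild type hearts and 7.48 and 5.71 in heterozygous ones, with a log2 fold change of 0.09 (SE 0.16, limma, Benjamini-Hochberg adjusted p = 0.834). A point mutation leaves the transcript in place, so this level does not check the genotype. The heart label was checked against marker genes, and the 12 cardiomyocyte markers summed to between 22669 and 28764 scaled TPM. Of 7 skeletal muscle markers, the 3 myosins *Myh1*, *Myh2* and *Myh4* were listed at 0 in every library. Others of that list were present, and *Tnni2* and *Ckm* passed the filter on low values. The whole list summed to 397 and 392 scaled TPM in wild type and 284 and 403 in heterozygous hearts.

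The pore of the L-type channel was the most abundant of the 8 transcripts. TPM are corrected for transcript length, so levels can be set side by side between genes. *Cacna1c* lay between 45.5 and 52.8 scaled TPM, above every other member in each of the 4 libraries. A middle group followed, with means over the 4 libraries of 12.9 for *Cacnb2*, 11.5 for *Cacna1g*, 9.30 for *Cacna2d1* and 7.91 for *Cacna1h*. Neighbours in this middle group overlapped in their ranges, each being above the next in 3 of 4 libraries, so their order is not resolved by the spread. The genes of calcium removal came last. *Atp2b1* and *Slc8a1* had overlapping ranges around means of 3.89 and 3.75, both below every channel gene in all libraries, and *Atp2b4* was lowest with a mean of 1.58. The plot of scaled TPM by library shows *Cacnb2* next below *Cacna1c* in both wild type hearts and in heterozygous replicate 2, where *Cacna1g* was nearly level with it (8.63 and 8.56), and below *Cacna1g*, *Cacna1h* and *Cacna2d1* in heterozygous replicate 1.

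**Figure D1:**
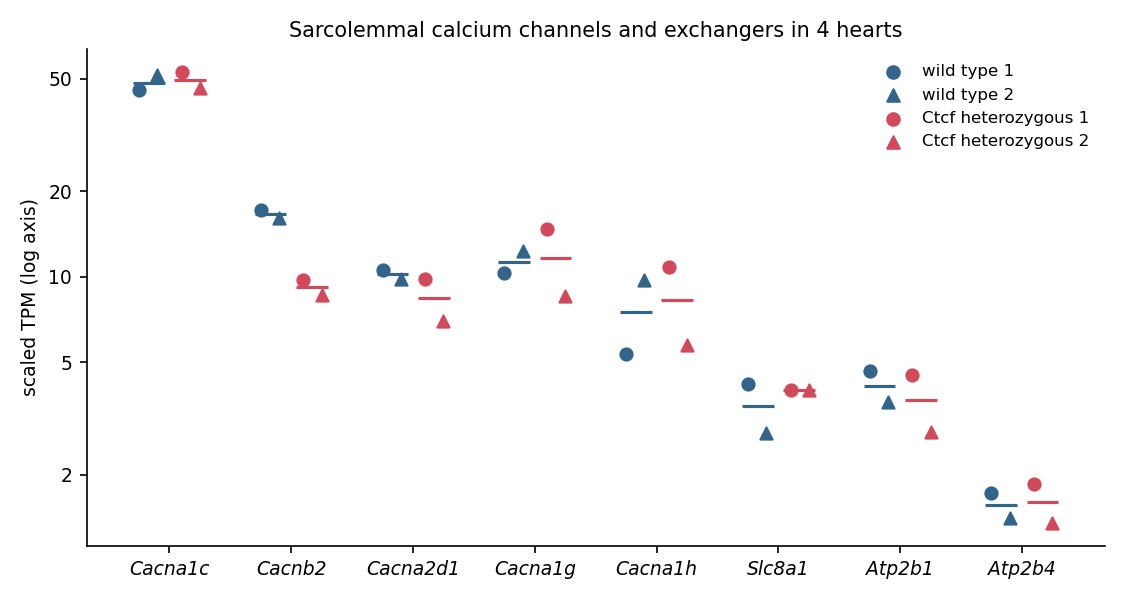
Scaled TPM (log axis) of the 8 genes in each of the 4 hearts, with circles for replicate 1, triangles for replicate 2, blue for wild type and red for *Ctcf* heterozygous, and a bar at the mean of each genotype. Both heterozygous values of *Cacnb2* (9.75 and 8.63) lie under both wild type values (17.2 and 16.1), while the points of the other 7 genes overlap between genotypes. Heterozygous values lay under the wild type ones in this way for 24.0% of all tested genes.

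Within the L-type channel the genotypes separated at the β subunit and not at the pore. *Cacnb2* was at 17.2 and 16.1 scaled TPM in the wild type libraries and at 9.75 and 8.63 in the heterozygous libraries. The means were 16.7 ± 0.779 and 9.19 ± 0.787 (SD, n = 2 each), so the gap between genotypes was several times the spread within either. The log2 fold change was -0.80 (SE 0.15, 95% confidence interval -1.16 to -0.43), which is a fold of 0.576 on the log2(scaled TPM + 1) scale. The unadjusted p of limma was 0.00142, rank 53 of 10036 genes, but the adjusted p was 0.261 by limma with Benjamini-Hochberg adjustment, so *Cacnb2* did not pass the threshold of 0.05. As deposited, before scaling, the same gene was at 18.64 and 20.43 TPM against 8.00 and 7.86 TPM. Its value was lower in heterozygous hearts under all 15 alternative settings, between -1.20 and -0.61, with limma adjusted p between 0.0612 and 0.768. Fewer cells that express a gene and less RNA per cell cannot be told apart in RNA of a whole heart.

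*Cacna1c* gave no such separation. It was at 45.5 and 51.4 scaled TPM in wild type and 52.8 and 46.2 in heterozygous hearts, and 1 heterozygous value lay inside the wild type range and the other just above it. The means of 48.4 ± 4.21 and 49.5 ± 4.72 (SD, n = 2 each) differed by less than either SD. The log2 fold change of 0.03 (SE 0.18, limma adjusted p = 0.954) had a 95% interval from -0.39 to 0.45, so the interval leaves room for a change in either direction. Without scaling the sign turned, to -0.40 on the deposited TPM, where the median of all tested genes was itself at -0.35.

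*Cacna2d1*, the α2δ subunit, had an intermediate pattern. It was at 10.6 and 9.81 scaled TPM in wild type hearts and at 9.84 and 7.0 in heterozygous hearts. The first heterozygous library lay inside the wild type range and only the second lay below it. Its log2 fold change was -0.26 (SE 0.19, 95% interval -0.71 to 0.18, limma adjusted p = 0.568), and the value stayed negative in 15 of 15 alternatives, from -0.66 to -0.05. The value nearest to 0 came without heterozygous replicate 2.

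All 8 genes are protein coding, and the L-type genes are long. In the GENCODE annotation of mm10, *Cacna1c* spans chr6:118587240-119196418 on the minus strand (609 kb, 27 transcripts), *Cacnb2* spans chr2:14603088-14987908 on the plus strand (385 kb, 16 transcripts) and *Cacna2d1* spans chr5:15934691-16374511 on the plus strand (440 kb). The 164 tested genes of at least 300 kb, which include these and *Slc8a1*, had a median log2 fold change of -0.05, beside -0.01 for all tested genes. There were 15 annotated genes inside or across *Cacnb2*, of which 3 share exonic bases with it and all 3 were listed at 0. The highest of the 15 was the pseudogene *Gm13268*, at 0 in both wild type libraries and at 0.67 and 0.44 TPM as deposited in the heterozygous libraries. *Gm37891*, on the strand of *Cacnb2*, went the other way, at 0.17 and 0.18 TPM in wild type and 0 in both heterozygous libraries. Values this low are not resolved, because the read depth is unknown.

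CTCF takes its name from the CCCTC repeats it was first found to bind, so 1 upstream sequence each of the pore and the β subunit is shown with that word marked. The sequences are RefSeq windows of GRCm38.p6, the build of mm10, printed 5′ to 3′ on the strand of the gene in lower case, with CCCTC or its reverse complement GAGGG in capitals.
*Cacnb2*, chr2:14823842-14824025, plus strand, 184 bases that end 66 bases before a start site inside the gene: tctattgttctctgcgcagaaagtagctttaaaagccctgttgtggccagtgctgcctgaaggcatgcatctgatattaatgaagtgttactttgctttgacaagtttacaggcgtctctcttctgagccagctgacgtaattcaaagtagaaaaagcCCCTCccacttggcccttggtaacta
*Cacna1c*, chr6:118757975-118758224, minus strand, 250 bases that end just before a start site inside the gene: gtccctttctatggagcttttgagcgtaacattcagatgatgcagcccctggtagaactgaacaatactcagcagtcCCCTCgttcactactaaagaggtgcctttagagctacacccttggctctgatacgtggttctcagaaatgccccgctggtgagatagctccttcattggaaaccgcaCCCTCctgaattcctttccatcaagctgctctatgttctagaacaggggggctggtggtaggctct
RefSeq gives 3 windows for *Cacna1c*, with 0, 3 and 2 matches from the outermost start inwards, and 2 for *Cacnb2*, with 2 matches in each. For each gene the window with the fewest bases in its annotated exons was taken, and the *Cacnb2* window was shortened to the stretch outside them. The outermost *Cacna1c* window, with 9 of its 250 bases in exons, is not printed. The *Cacnb2* stretch held the word 1 time and the *Cacna1c* stretch 2 times, and the GC content was 45.1% and 50.4%, against a median of 52.4% over all windows. The word is common. It was present on either strand in 60.5% of the 32851 windows of 250 bases, in 48.4% of the same windows cut to the length of the *Cacnb2* stretch, and in 6 of the 10 windows that belong to 6 of the 8 genes. A match to 5 letters is a description of the sequence and not a binding site, and the gene-level TPM do not show which start was used.

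Ratios within a library do not depend on its scaling, and 11 ratios and shares were compared. *Cacnb2* was at 0.379 and 0.313 of the *Cacna1c* level in wild type hearts and at 0.184 and 0.187 in heterozygous hearts. The heterozygous hearts therefore had about 0.539 times as much β2 transcript for each pore transcript. The log2 difference was -0.89, and 129 of the 9969 genes with such a ratio in every library had a lower difference. The exact permutation p was 0.333 (two-sided), the smallest that 2 against 2 libraries can give, so no ratio could pass a threshold of 0.05. Heterozygous and wild type values were also apart in this direction for 22.7% of those genes in their ratio to *Cacna1c*.

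The other ratios differed less. *Cacna2d1* to *Cacna1c* was 0.232 and 0.191 in wild type and 0.186 and 0.152 in heterozygous hearts, a log2 difference of -0.33 with the ranges just apart. That difference was -0.18 without wild type replicate 1 and -0.18 without heterozygous replicate 2. *Cacna1g* to *Cacna1c* (0.227 and 0.239 against 0.279 and 0.185) and *Cacna1h* to *Cacna1c* (0.118 and 0.189 against 0.205 and 0.124) overlapped between genotypes. The share of *Cacna1c* in the TPM of all pore genes was 68.8% and 65.5% in wild type and 62.9% and 66.6% in heterozygous hearts, with overlap.

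Among the β subunit transcripts, the shares of *Cacnb2* and *Cacnb1* did not overlap between the genotypes, while those of *Cacnb3* and *Cacnb4* did. Over all tested genes, scaled TPM did not overlap for 24.0% with lower and 23.0% with higher heterozygous values. *Cacnb2* supplied 78.2% and 79.0% of the TPM of the 4 *Cacnb* genes in wild type hearts and 63.9% and 57.1% in heterozygous hearts (exact permutation p = 0.333, two-sided). *Cacnb1*, the β subunit best known from skeletal muscle, supplied 11.5% and 10.2% in wild type and 25.3% and 26.9% in heterozygous hearts. This gene lies outside the rule for named genes and was chosen after its values were seen. Its scaled TPM were 2.53 and 2.08 in wild type and 3.86 and 4.06 in heterozygous hearts, and the heterozygous values were the higher in both libraries. The log2 fold change was 0.59 (SE 0.14, 95% interval 0.25 to 0.93), with an unadjusted p of 0.00448 and an adjusted p of 0.307 (limma, Benjamini-Hochberg), and its sign held in all 14 alternatives that could test it. *Cacnb3* was at 1.74 and 1.78 against 1.17 and 2.04 scaled TPM, with overlap. *Cacna2d1* supplied 97.8% and 95.3% of the *Cacna2d* TPM in wild type and 94.5% and 88.6% in heterozygous hearts, where the other members of that family were all under 1 TPM on average. A share can move because its own gene or another gene of the family moves.

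**Figure D2:**
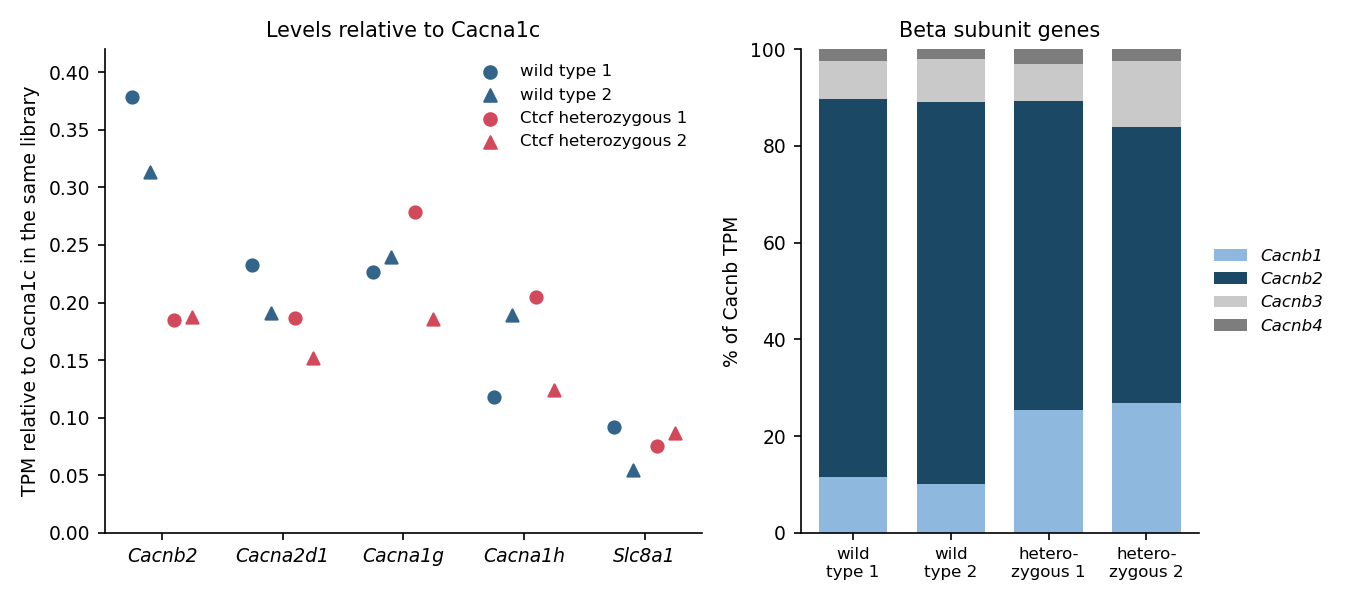
Left, TPM of 5 genes relative to *Cacna1c* in the same library, with symbols by genotype and replicate. Right, the percentage of the summed TPM of the 4 *Cacnb* genes taken by each in each heart. *Cacnb2* relative to *Cacna1c* is at 0.184 and 0.187 in the heterozygous hearts and at 0.379 and 0.313 in wild type, and its share of the β subunit TPM is 63.9% and 57.1% against 78.2% and 79.0%.

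The T-type channel genes varied between hearts of the same genotype more than between genotypes. *Cacna1g* was at 10.3 and 12.3 scaled TPM in wild type and at 14.7 and 8.56 in heterozygous hearts, so that the heterozygous libraries held both the highest and the lowest value. *Cacna1h* was at 5.35 and 9.72 in wild type and at 10.8 and 5.73 in heterozygous hearts. Their log2 fold changes were 0.00 (95% interval -0.60 to 0.60, limma adjusted p = 1.0) and 0.11 (95% interval -0.68 to 0.90, limma adjusted p = 0.905), and both turned negative on deposited TPM. In both genes wild type replicate 2 and heterozygous replicate 1 were the higher library of their genotype. The summed scaled TPM of atrial and conduction system markers, carried mostly by *Nppa*, *Myl7* and *Myl4*, were 814 and 2343 in wild type and 1914 and 3258 in heterozygous hearts, with *Isl1* listed at 0 and 6 of 10 markers tested. *Cacna1d*, the pacemaker L-type pore of that list, had the same higher libraries as the T-type genes, at 1.10 and 1.14 against 1.27 and 0.934. *Tbx3*, a conduction system transcription factor, was at 1.88 and 1.31 against 2.22 and 0.967. The part of these cells in the T-type values was not tested. In the annotation, *Cacna1g* lies at chr11:94408391-94474198 and *Cacna1h* at chr17:25374285-25433783, both on the minus strand. *Cacna1h* shares 158 exonic bases with *Tpsg1* on the other strand, which was at no more than 0.05 TPM.

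The genes of calcium removal overlapped between genotypes. *Slc8a1*, the exchanger that moves calcium out against sodium, was at 4.18 and 2.82 scaled TPM in wild type and at 4.0 and 4.0 in heterozygous hearts, so both heterozygous values lay between the wild type ones. Its log2 fold change was 0.17 (SE 0.18, 95% interval -0.25 to 0.59, limma adjusted p = 0.702) and turned to -0.17 on deposited TPM. The pump gene *Atp2b1* was at 4.64 and 3.61 against 4.48 and 2.83, with a log2 fold change of -0.15 (95% interval -0.65 to 0.34, limma adjusted p = 0.773). The pump gene *Atp2b4* was at 1.73 and 1.40 against 1.85 and 1.35, with a log2 fold change of 0.02 (95% interval -0.36 to 0.40, limma adjusted p = 0.973). In both pump genes replicate 1 was above replicate 2 in either genotype. *Slc8a1* lies at chr17:81373105-81738377 (minus strand), *Atp2b1* at chr10:98914406-99026143 (plus strand) and *Atp2b4* at chr1:133699457-133801041 (minus strand).

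A pair of ratios among the removal genes separated by genotype. *Slc8a1* was at 0.0137 and 0.00923 of the level of *Atp2a2*, the pump that returns calcium to the sarcoplasmic reticulum, in wild type hearts and at 0.0176 and 0.0154 in heterozygous hearts. The log2 difference was 0.55, but 0.26 without wild type replicate 2 and 0.83 without wild type replicate 1. *Atp2a2* itself was at 304.9 and 305.1 against 227.6 and 259.5 scaled TPM (log2 fold change -0.33, SE 0.19, limma adjusted p = 0.496). *Atp2b1* to *Atp2b4* was 2.68 and 2.57 in wild type and 2.42 and 2.10 in heterozygous hearts, a log2 difference of -0.22, or -0.12 without heterozygous replicate 2. The summed pump genes relative to *Slc8a1* overlapped, at 1.52 and 1.78 against 1.59 and 1.05. Of the 11 ratios and shares, 6 had no overlap between genotypes, 5 with the lower and 1 with the higher values in heterozygous hearts. Several of the 11 share a gene, so they are not independent. Ratios to *Cacna1c* were apart with lower heterozygous values for 22.7% of genes. The scaled TPM of single genes, another measure, were apart for 24.0% (lower) and 23.0% (higher). Each of those 6 ratios and shares had the smallest exact permutation p of 0.333.

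No member passed the adjusted threshold of limma, and 0 of 8 were called (adjusted p under 0.05 with a change of over 1.5-fold), where 3 of 10036 genes or 0.0299% were. At an unadjusted p under 0.05, 1 of 8 members was lower, against 6.08% of all tested genes, and 0 of 8 were higher, against 6.22%. The genotypes did not overlap, with the heterozygous values the lower, for 1 of 8 members, against 24.0% of tested genes, and with them the higher for 0 of 8, against 23.0%. On deposited TPM, 5 of 8 members lay apart with lower heterozygous values, against 67.8% of all tested genes. The median log2 fold change of the members was 0.01, beside -0.01 for all tested genes. The plot of log2 fold changes shows that *Cacnb2* is the member whose interval stays on a single side of 0.

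**Figure D3:**
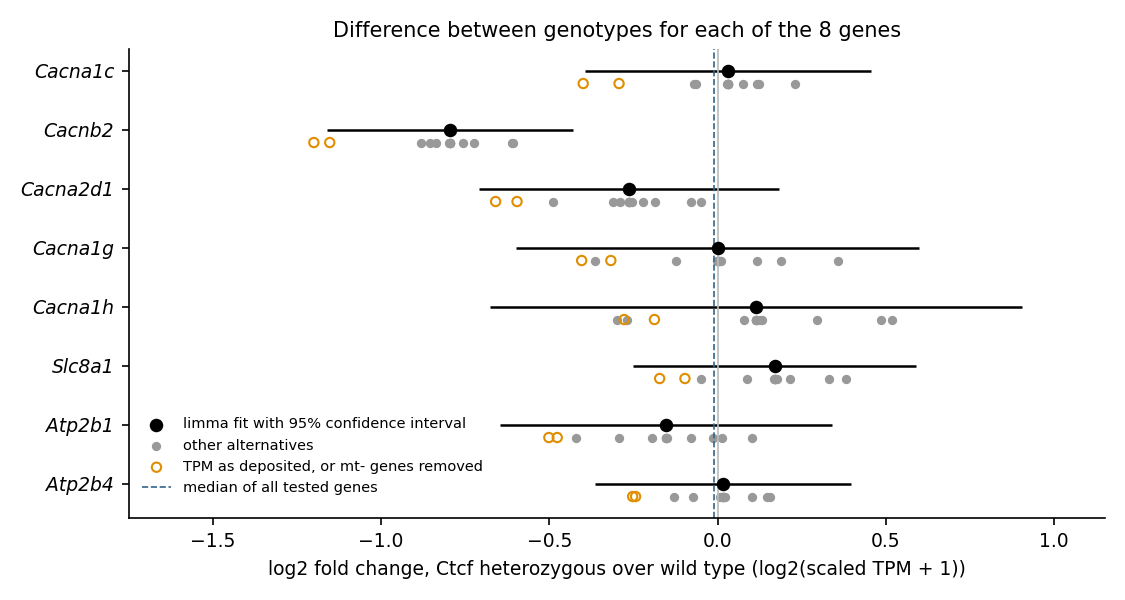
Log2 fold change of each gene, heterozygous over wild type, on the log2(scaled TPM + 1) scale (black point, with its 95% confidence interval from limma), with the values under the alternative settings below it as grey points and, as open orange circles, those from TPM as deposited or with mitochondrial genes removed. The interval of *Cacnb2* runs from -1.16 to -0.43, the other 7 cross 0, and all but *Cacnb2* and *Cacna2d1* change sign under at least 1 setting.

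The other genes of the voltage-gated family were mostly at very low levels. Of 21 further subunit genes, 5 passed the filter on low values, 2 with lower and 3 with higher values in heterozygous hearts. Apart from *Cacnb1*, none had an unadjusted p under 0.05. The most abundant, *Cacna1s*, the pore of the skeletal muscle L-type channel, was at 3.40 and 3.04 against 3.46 and 3.71 (log2 fold change 0.12, limma adjusted p = 0.724), and its sign turned on deposited TPM. *Cacna1a*, a neuronal pore, had the largest value of the list, 0.91 (limma adjusted p = 0.443), with heterozygous replicate 2 at 4.13 beside 0.755, 0.742 and 0.462 in the others. Of 10 other exchanger and pump genes only *Slc8b1*, the mitochondrial sodium-calcium exchanger, was tested, at 2.71 and 2.44 against 3.27 and 3.66 (log2 fold change 0.32, limma adjusted p = 0.409, sign turned on deposited TPM).

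Among proteins that bind or regulate the L-type channel, 6 of 14 genes were tested and 4 had lower values. *Rrad* encodes a small GTPase that binds the β subunit and restrains the channel. It was the most abundant of the list, at 29.96 and 26.8 scaled TPM in wild type and 19.6 and 19.4 in heterozygous hearts. The heterozygous values lay closely together under both wild type values. The log2 fold change was -0.52 (SE 0.16, 95% interval -0.90 to -0.14), with an unadjusted p of 0.0149 and a limma adjusted p of 0.340, and its sign held in all 15 alternatives. The median of the 6 genes was -0.18, or 0.00 when libraries were scaled to cardiomyocyte markers.

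The genes that set the sodium gradient, on which the exchanger depends, divided evenly, 4 lower and 4 higher among 8 tested of 9, with a median of 0.00. The split was 6 lower and 2 higher on deposited TPM and 1 lower and 7 higher under cardiomyocyte scaling. The pump regulator *Fxyd1*, the most abundant, was at 467.9 and 415.0 against 450.2 and 423.9 scaled TPM (log2 fold change -0.01, limma adjusted p = 0.984). Its sign turned under quantile normalization, under cardiomyocyte scaling, and without wild type replicate 1 or heterozygous replicate 2.

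Among the routes of cation entry that do not need voltage-gated calcium channels, 10 of 15 genes were tested, 3 with lower and 7 with higher values. *Trpm4*, a calcium-activated cation channel that itself passes little calcium, was at 23.6 and 30.9 scaled TPM in wild type and 51.0 and 44.7 in heterozygous hearts. Its log2 fold change was 0.80 (SE 0.20, 95% interval 0.33 to 1.26, limma adjusted p = 0.311). The mechanically gated channel *Piezo1* was at 13.5 and 12.6 against 18.0 and 19.9, a log2 fold change of 0.51 (limma adjusted p = 0.336). The signs of *Trpm4* and *Piezo1* held in all 15 alternatives, whereas the list's median of 0.13 turned negative with the median of all genes on deposited TPM. *Orai3*, a store-operated channel that is outside the naming rule and was chosen after its values were seen, was at 2.44 and 2.67 against 1.16 and 1.91 (log2 fold change -0.50, limma adjusted p = 0.366).

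In the sarcoplasmic reticulum, which receives the trigger calcium, 8 of 10 tested genes had lower values and 2 higher, with a median of -0.17, or 0.03 under cardiomyocyte scaling. The luminal calcium-binding gene *Hrc* was at 119.5 and 140.2 scaled TPM in wild type and 69.9 and 77.6 in heterozygous hearts, a log2 fold change of -0.81 (SE 0.19, 95% interval -1.25 to -0.36, limma adjusted p = 0.293). *Pln*, the inhibitor of the *Atp2a2* pump and the most abundant of the list, was at 426.1 and 416.9 against 262.8 and 344.7, a log2 fold change of -0.48 (limma adjusted p = 0.411). Both *Hrc* and *Pln* kept a negative sign in all 15 alternatives. None of the 40 tested genes of these 6 lists passed an adjusted p of 0.05 in limma. At an unadjusted p under 0.05, 3 were lower (7.5%, against 6.08% of all tested genes) and 6 higher (15.0%, against 6.22%). This balance turned with the scaling. Of all 10036 tested genes, 3390 had an unadjusted limma p under 0.05 on deposited TPM and 1563 under cardiomyocyte scaling, in either direction. On deposited TPM, regulators had 4 lower and 0 higher, sodium gradient genes 3 and 0, entry routes 3 and 0. The sarcoplasmic reticulum had 5 and 0, and voltage-gated subunits and other exchangers 0 and 0. Under cardiomyocyte scaling regulators had 0 and 1, sodium gradient genes 0 and 2, entry routes 0 and 4. The sarcoplasmic reticulum had 1 and 0, voltage-gated subunits 0 and 2 and other exchangers 0 and 1.

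**Figure D4:**
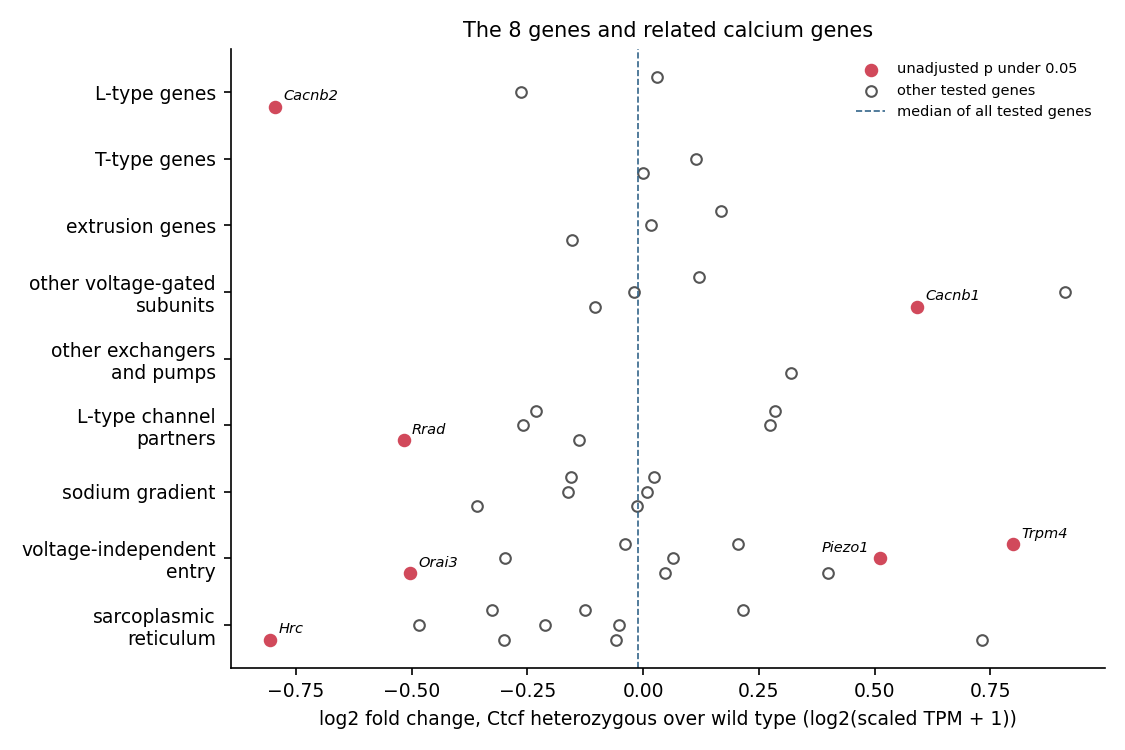
Log2 fold change of the 8 genes and of the tested genes reported here from 6 lists of related genes, heterozygous over wild type, with filled red points for an unadjusted limma p under 0.05 and a dashed line at the median of all tested genes (-0.01). *Cacnb2* (-0.80), *Rrad* (-0.52) and *Hrc* (-0.81) lie to the left and *Cacnb1* (0.59), *Trpm4* (0.80) and *Piezo1* (0.51) to the right, and each keeps its sign in every scaling tried.

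Marker genes of the cell types of the heart were summed in each library. Of the 12 cardiomyocyte markers 8 had lower values, with a median of -0.28, and the genotypes did not overlap for 7, with 6 lower and 1 higher, against 24.0% and 23.0% of all tested genes. Their sum was 28764 and 26682 in wild type and 22669 and 27030 in heterozygous hearts. When libraries were scaled to these markers, *Cacnb2* was at -0.61 (limma adjusted p = 0.200). Endothelial markers summed to 285 and 282 against 314 and 357, but most of that sum was *Egfl7* (198 and 192 against 234 and 275), and 7 of the 9 markers had lower values, 2 of them (*Pecam1* and *Cldn5*) at an unadjusted p under 0.05 in limma, with a median of -0.05. Fibroblast markers, 6 of 8 with lower values, summed to 70.7 and 92.9 against 64.6 and 68.5. Smooth muscle and pericyte markers, 6 of 8 tested with lower values, summed to 92.4 and 84.7 against 69.8 and 84.5. Macrophage markers, 5 of 7 tested with lower values, summed to 44.4 and 46.3 against 33.6 and 47.9. Erythroid markers stood out in heterozygous replicate 2, at 2104 beside 934, 981 and 962 in the others. Without that library *Cacnb2* was at -0.72. The part of these cell types in the values of *Cacnb2* and the other members was not tested.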

How the data were processed

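Heart RNA-seq of 2 wild type and 2 *Ctcf* heterozygous mice was analysed, grouped by the genotype label of each library. The authors trimmed reads with Trim Galore, aligned them to mm10 with STAR, quantified genes with RSEM and deposited TPM per gene. The authors applied DESeq2 to counts, which were not used here, and no count model was fitted here. Depth and counting error are unknown, since TPM do not carry them. TPM were divided by median-of-ratios factors taken from the genes that no library lists at 0, and log2(scaled TPM + 1) was formed, with 1 as the pseudocount. The genes that reached an average TPM of 1 were fitted with limma 3.58.1 (lmFit and eBayes with trend, two-sided, R 4.3.3) with Benjamini-Hochberg adjustment over 10036 genes. Ratios were compared by exact permutation over the 4 libraries. Tables were made in Python 3.11.15 with pandas 2.3.3, and the code was tested on simulated data. GENCODE release M21 held 55141 of the 55401 gene identifiers, matched without version number. The release the authors used is not given in the sources used here. Promoter windows are from RefSeq (GRCm38.p6), matched by symbol for 6 of 8 genes.

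The members and the gene lists were chosen with earlier results of these data known. The naming rule takes the 8 genes, *Ctcf*, *Atp2a2*, of each related list the most abundant gene and those with a mean TPM of at least 5 and an unadjusted p under 0.05, and genes that overlap a member. A few genes that the rule names are not reported here. *Cacnb1*, *Cacnb3*, *Cacna1a*, *Cacnb4*, *Orai3* and the markers named are outside it. Alternatives were TPM as deposited, mitochondrial genes removed, quantile normalization, scaling to cardiomyocyte markers, pseudocounts of 0.1 and 5, no filter, a mean TPM of at least 5, a replicate block, robust or trend-free eBayes, other thresholds and each library left out.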

Additional observations from a re-analysis of the deposited data

How the results depend on the processing

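*Cacnb2* and *Cacna2d1* kept negative values, and no adjusted p under 0.05, in 15 of 15 alternatives. The median log2 fold change of all genes moved to -0.35 on deposited TPM, to -0.31 without mitochondrial genes and to 0.15 with cardiomyocyte scaling. Relative to the median of the same setting, *Cacnb2* ran from -0.87 to -0.61 and *Cacna1c* from -0.06 to 0.13 over all 15 alternatives. On deposited TPM and with mitochondrial genes removed the signs turned for *Cacna1c* (-0.40 and -0.29), *Cacna1g* (-0.40 and -0.32), *Cacna1h* (-0.28 and -0.19), *Slc8a1* (-0.17 and -0.10) and *Atp2b4* (-0.25 and -0.24). *Cacna1g* was at -0.0032 with a pseudocount of 0.1, and *Atp2b1* at 0.012 with cardiomyocyte scaling. Leaving out each library gave -0.88 to -0.72 for *Cacnb2*, -0.070 to 0.12 for *Cacna1c*, -0.37 to 0.36 for *Cacna1g*, -0.30 to 0.52 for *Cacna1h*, -0.051 to 0.38 for *Slc8a1*, -0.42 to 0.10 for *Atp2b1* and -0.13 to 0.15 for *Atp2b4*. Negative values came without wild type replicate 1 or heterozygous replicate 1 for the 3 *Cacna1* genes, without wild type replicate 2 for *Slc8a1*, and without wild type replicate 2 or heterozygous replicate 1 for *Atp2b4*. The positive value of *Atp2b1* came without heterozygous replicate 2. The cause of these turns was not tested. *Slc8a1*, *Atp2b1* and *Atp2b4* were not tested at a mean TPM of at least 5.

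The count of 3 called genes became 13 on deposited TPM, 14 with mitochondrial genes removed, 20 with cardiomyocyte scaling (5 lower and 15 higher), 5 with robust eBayes, 5 at an adjusted p under 0.1, 0 with no filter (limma, 2133 at an unadjusted p under 0.05) and 7 to 33 with a library left out (23 without wild type replicate 1, 33 without wild type replicate 2, 16 without heterozygous replicate 1 and 7 without heterozygous replicate 2). No member was among them. A lone library was assumed to vary like the other group.

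With a replicate block the count was 11, and *Cacnb2* stayed at -0.80 (limma adjusted p = 0.152). Same-numbered libraries are different mice, and over all tested genes the correlation of what remains after the genotype mean is removed was 0.101. The numbers were therefore not taken as a pairing, and whether same-numbered libraries share a handling batch was not tested. The ratio of *Cacnb2* to *Cacna1c* had a mean paired log2 difference of -0.89 (exact permutation over 2 pairs, p = 0.5, the smallest possible).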
